A study of Homo sapiens with 6 samples.

Results

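The H3K27me3 islands of the lymphoma line WSU-DLCL2 were set against those of the lines Pfeiffer and KARPAS-422 over the 22 autosomes. An island is an interval in which H3K27me3 reads exceeded input reads by the caller's threshold. Gained islands were WSU-DLCL2 islands that shared no base with an island of either other line. Lost stretches were runs of at least 5 kb that lay in islands of both other lines and in no WSU-DLCL2 island. By this rule 2824 of 23066 WSU-DLCL2 islands were gained and 5930 stretches were lost, out of 71913 autosomal islands in the 3 lists. The words gained and lost name only the presence or absence of an island against these 2 lines, and no line served as the unaffected starting point. The members were chosen by island coverage in the same 3 lists, so the counts describe the lists and were given no test.

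All 3 lines are established diffuse large B-cell lymphoma lines and the labels give each as EZH2 mutant, so no wild-type line is part of the comparison. They differ in the growth-inhibition value given by the labels for the EZH2 inhibitor GSK126, which is 28 nM for Pfeiffer, 134 nM for WSU-DLCL2 and 232 nM for KARPAS-422. The cells were not treated with the inhibitor as far as the labels say, and were fixed with formaldehyde before immunoprecipitation with an antibody against H3K27me3. With 1 H3K27me3 and 1 input library for each line, a difference between lines has no replicate check. Autosomal islands held 16039824 H3K27me3 reads in the shallowest list and 17188115 in the deepest, that of WSU-DLCL2.

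H3K27me3 is the trimethyl mark that Polycomb repressive complex 2 places on histone H3, with EZH2 as its usual catalytic subunit. The mark spreads over broad domains around silenced genes, many of them regulators of development, and germinal-centre B cells rely on EZH2 to hold differentiation genes silent. Recurrent EZH2 mutations of this lymphoma are known to raise trimethylation of this residue.

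The gained islands made up 12.2% of the WSU-DLCL2 list. The same rule gave 10.8% of Pfeiffer islands and 16.2% of KARPAS-422 islands, so WSU-DLCL2 lay between the other lines in the full lists. This order depended on the lists. At a false discovery rate of at most 1e-10 the shares were 13.2% for Pfeiffer and 16% for both WSU-DLCL2 and KARPAS-422. With only islands at or above their list's median ratio of H3K27me3 to input reads, WSU-DLCL2 was highest. Its share was then 27.8%, beside 22.2% for Pfeiffer and 27.3% for KARPAS-422. Gained islands covered 39.1 Mb, or 5.48% of the bases in WSU-DLCL2 islands, and held 778844 H3K27me3 reads, 4.53% of the reads in its islands. The lost stretches covered 76.0 Mb, which was 14.7% of the 517 Mb covered in both other lines. That share was 13.5% for Pfeiffer and 15.8% for KARPAS-422 when each was set against its own pair. Segments of at least 5 kb covered in both other lines numbered 21337, and 26.5% of them held a lost stretch of WSU-DLCL2, beside 24.1% for Pfeiffer and 30% for KARPAS-422. In 16% of these segments WSU-DLCL2 had no island base at all, beside 15.3% for Pfeiffer and 14.9% for KARPAS-422. By each of these measures WSU-DLCL2 had neither an unusually high nor an unusually low share among the 3 lines, which share the lists they were compared with.

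Gained islands were short. Their median length was 11.25 kb, with quartiles of 7.5 and 16.5 kb, against a median of 18.75 kb over all WSU-DLCL2 islands. The gained share fell with length, from 31.6% of islands under 5 kb to 24.6% at 5 to 10 kb, 15.2% at 10 to 20 kb, 6.04% at 20 to 50 kb and 1.65% at 50 to 100 kb. Of the 1101 WSU-DLCL2 islands of at least 100 kb, 1 was gained, where Pfeiffer had 9 and KARPAS-422 had 10 such islands by the same rule. A longer island has more bases with which to touch another line, and length was part of what the rule used in this sense.

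Enrichment was read as the ratio of H3K27me3 reads to input reads in an island, divided by the median ratio of that line's autosomal islands, and is called the relative ratio. The median ratio was 1.96 for WSU-DLCL2, 1.83 for Pfeiffer and 2.65 for KARPAS-422. The gained islands had a median relative ratio of 0.961 with quartiles of 0.880 and 1.08, while all WSU-DLCL2 islands had quartiles of 0.900 and 1.14. They were thus slightly below the middle of their own list, and 40.2% of them lay above its median. Gained islands of Pfeiffer and of KARPAS-422 both had a median relative ratio of 0.923, a little lower than those of WSU-DLCL2. The gained share of WSU-DLCL2 islands was 15.2% in the lowest quartile of the ratio, 14.1% and 11.0% in the middle quartiles and 8.74% in the highest. Over the same quartiles the gained share went from 18.7% to 5.40% in Pfeiffer and from 25.8% to 7.86% in KARPAS-422. WSU-DLCL2 therefore had the smallest spread of the gained share over its ratio quartiles. A relative ratio of at least 1.5 was reached by 71 gained islands, 2.51% of them, against 3.74% of all WSU-DLCL2 islands.

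The read depth behind a gained island was modest, with medians of 209.5 H3K27me3 reads and 110 input reads. Intervals given below are exact 95% binomial intervals of the read ratio. They cover counting error only, and they do not allow for the choice of islands by that ratio. An interval without an island is one that did not pass the caller's threshold, and it may still have held H3K27me3 reads.

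Many gained islands lay well away from any island of the other lines. The distance to the nearest one had a median of 21 kb, with quartiles of 6.75 and 63 kb, and 1885 gained islands (66.7%) had none within 10 kb. For 477 of them (16.9%) the nearest lay at least 100 kb away, and the largest distance was 6.64 Mb, on chromosome 4. At the edge of the rule, 52 WSU-DLCL2 islands met another line over 1 window of 0.75 kb and so were not counted, and their median relative ratio was 1.02.

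The highest relative ratio of a gained island, among those of at least 100 H3K27me3 reads that stood 10 kb or more from other lines, belonged to chr21:37687501-37692000. It held 101 H3K27me3 and 24 input reads over 4.5 kb, giving a relative ratio of 2.15 (1.37 to 3.51). The best supported of the 12 highest was chr17:4853251-4860000, with 262 and 68 reads and a relative ratio of 1.97 (1.5 to 2.61). Pfeiffer had low input around that site, 0.510 of its median, a measure defined below. The island chr12:123858001-123867750 had 227 and 59 reads and a relative ratio of 1.97 (1.47 to 2.66), and input around it was near the median in all 3 lines, at 1.00, 1.01 and 0.931. Similarly placed in balanced input was chr2:120763501-120772500, at 1.90 (1.41 to 2.6), whose nearest island in another line was 180.75 kb away. These islands were 3.75 to 9.75 kb long, and input reads per kb inside them ran from 0.497 to 0.938 of the WSU-DLCL2 median. A low input count raises the ratio by construction, so their rank rests in part on the input.

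The longest gained islands had low relative ratios. The longest was chr7:18381751-18492750, which covered 111 kb with 2716 H3K27me3 and 1803 input reads and a relative ratio of 0.769 (0.725 to 0.817). Next came chr8:2737501-2829000 at 91.5 kb and 0.760 (0.709 to 0.815), then chr4:186692251-186777750 at 85.5 kb and 0.937 (0.864 to 1.02). Of the 12 longest, 6 lay on chromosome 8 and 2 on chromosome 7, where WSU-DLCL2 had raised input. The longest in balanced input were chr13:102534001-102603000, at 69 kb and 0.931 (0.851 to 1.02), and chr9:126231001-126297750, at 66.75 kb and 0.852 (0.782 to 0.929).

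Input reads follow the amount of DNA and so carry copy number along with mappability. For each 1 Mb bin, input per kb of islands was pooled with the 2 Mb on either side and set relative to the median over the same line's autosomes. Bins whose relative input differed from 1 by at most 0.15 in all 3 lines are called balanced. Balanced bins held 65.0% of gained islands, 59.4% of lost stretches and 62.7% of all WSU-DLCL2 islands. In them the gained share was 12.7% and the lost share of jointly covered bases was 13.4%. For Pfeiffer the matching shares were 10.7% and 11.5%, and for KARPAS-422 they were 16.5% and 13.8%. The order of the 3 lines in balanced bins was the order seen over all bins.

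The lost share differed between classes of WSU-DLCL2 input. Where WSU-DLCL2 input was at most 0.75 of its median, 83.8% of the jointly covered bases were lost and 0 of its 60 islands were gained. At 0.75 to 0.85 the lost share was 27.5%, in the class around 1 it was 14.3%, and at 1.3 or more it was 7.73%. The gained share followed no single direction over the same classes, with 25.3% at 0.75 to 0.85, 11.6% in the class around 1, 15.8% above it and 20.9% at 1.3 or more. By the input of Pfeiffer the shares also differed. At a Pfeiffer input of at most 0.75, 27.8% of WSU-DLCL2 islands were gained and 0.392% of jointly covered bases were lost, and at 1.3 or more the shares were 7.23% and 19.0%. Bins with too few islands for an input value stand apart from these classes. Where WSU-DLCL2 had no value, 94.3% of 912.75 jointly covered kb were lost. Where Pfeiffer had none, 62.8% of 145 WSU-DLCL2 islands were gained, and where KARPAS-422 had none, 57.8% of 249. A line with few islands leaves little to overlap, so these shares follow in part from the rule. The part of copy number in the shares was not tested.

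**Figure D1:**
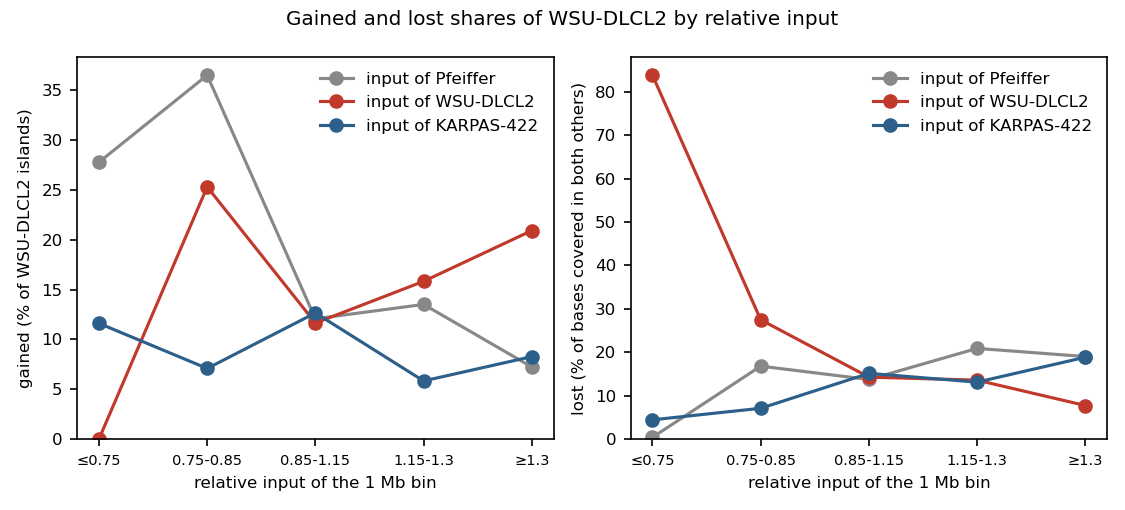
Share of WSU-DLCL2 islands that were gained (left, percent) and of bases covered in both other lines that were lost (right, percent), by class of relative input of the 1 Mb bin (x axis), with 1 curve for the input of each line. The lost share was 83.8% where WSU-DLCL2 input was at most 0.75 and 7.73% where it was at least 1.3. Bins without an input value are not drawn.

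Chromosomes differed widely. The gained share ran from 5.53% of WSU-DLCL2 islands on chromosome 16 to 27.1% on chromosome 4, with a median of 11.2%. High shares were also found on chromosome 8 (19.2%), chromosome 13 (18.9%), chromosome 7 (16.7%) and chromosome 3 (16.7%). Low shares were found on chromosomes 19 (5.70%), 14 (5.85%), 20 (6.04%) and 17 (6.08%). The lost share of jointly covered bases ran from 5.76% on chromosome 22 to 24.2% on chromosome 16, followed by chromosome 8 (23.4%), chromosome 5 (20.4%) and chromosome 14 (19.4%). Median relative input of the other lines was high on several of these, though a chromosome median hides differences within the chromosome. In Pfeiffer it was 1.45 on chromosome 16, 1.40 on chromosome 5 and 1.36 on chromosome 8, and in KARPAS-422 it was 1.40 on chromosome 14. On chromosome 17 median Pfeiffer input was 1.41 and the lost share was 8.76%, but Pfeiffer islands over chr17:1-19436250 had a median input of 0.549. WSU-DLCL2 itself had a median of 1.39 on chromosome 8 and between 0.897 and 1.02 on the other autosomes. Of the 4214.2 kb lost on chromosome 8, 2365.5 kb lay in chr8:128806501-135861000, where WSU-DLCL2 islands had a median input of 0.640. Gained islands were less often near chromosome ends than the list as a whole, with 5.95% within 5 Mb of an end against 11.1% of all WSU-DLCL2 islands, and lost stretches stood at 11.4%.

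**Figure D2:**
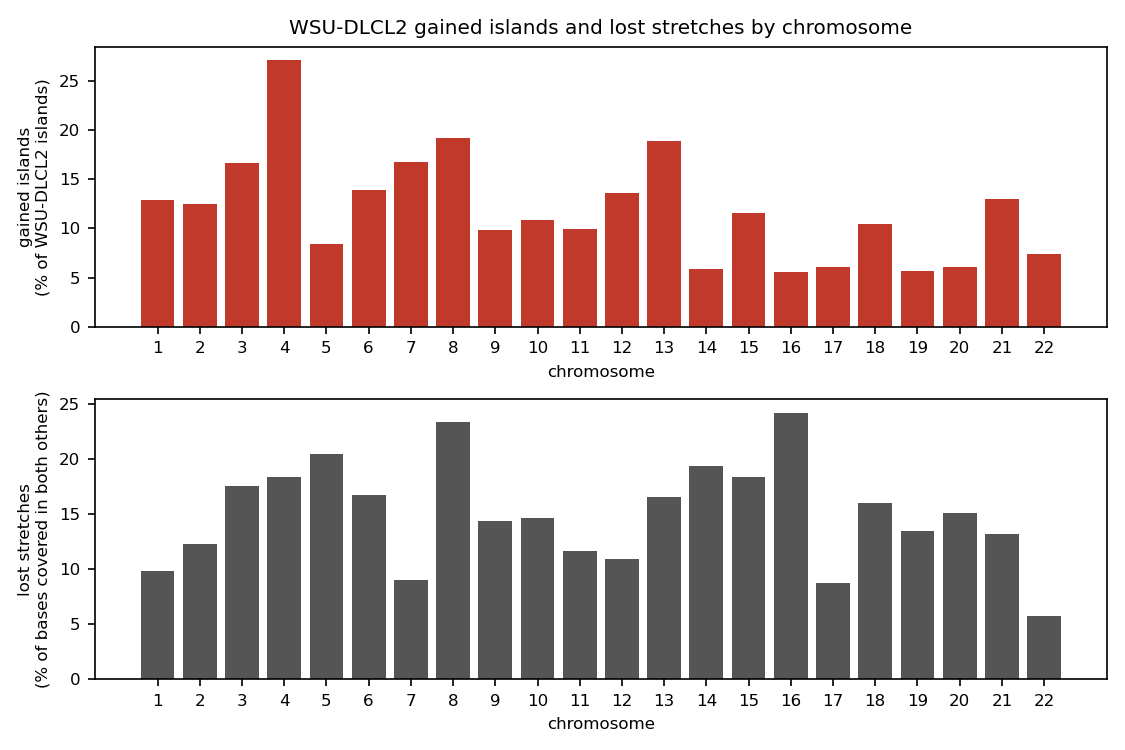
Gained islands as a percentage of the WSU-DLCL2 islands of each autosome (top) and lost stretches as a percentage of the bases covered in both other lines (bottom). Chromosome 4 has the tallest gained bar, at 27.1%, and chromosome 16 has the shortest gained bar and the tallest lost bar, at 5.53% and 24.2%.

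Gained islands lay close together in places. Chained over distances of up to 100 kb, they formed 1794 regions, of which 1266 held a single island and 39 held at least 100 kb of gained islands. Of these 39, 18 had balanced input. The largest was chr4:184173001-185203500, with 24 gained islands that summed to 510 kb in a span of 1030.5 kb. WSU-DLCL2 islands covered 52.8% of it, Pfeiffer islands 1.53%, and KARPAS-422 had none. Pfeiffer input there was 0.619 of its median, and KARPAS-422 had too few islands around it for an input value. The region belonged to a longer stretch at the end of the long arm, chr4:170246251-191037000, in which 82 of the 89 WSU-DLCL2 islands were gained. Over these 20.8 Mb WSU-DLCL2 islands covered 9.62%, those of Pfeiffer 1.08% and those of KARPAS-422 0.112%. This one chromosome end thus supplied 82 of the 265 gained islands of chromosome 4, and WSU-DLCL2 input over it was 1.04 of its median.

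A line without islands in a region has no input measured inside it, so its balanced value was pooled from islands around the region. Regions with balanced input in this sense are given next. The largest was chr2:100285501-100696500, a span of 411 kb with 11 gained islands of up to 54 kb. WSU-DLCL2 islands covered 74.3% of this span and the other lines had no island in it. The 11 islands had relative ratios from 0.825 to 1.12 with a median of 0.957. Within these bounds a wide, even block of moderate enrichment was thus called in 1 line. The bounds follow from the rule, since another WSU-DLCL2 island, which was not gained, ended just before the region start. On chr15:98327251-98789250, 12 gained islands and 3 others gave WSU-DLCL2 67.9% coverage, while KARPAS-422 covered 6.98% and Pfeiffer had no island. On chr1:221075251-221451000 WSU-DLCL2 coverage was 52.7%, from 10 islands with a median relative ratio of 0.854, and both other lines had none. On chr18:5018251-5399250 WSU-DLCL2 islands covered 68.1%, Pfeiffer islands 2.95% and KARPAS-422 islands 7.09%. The median relative ratio of the 13 islands there was 1.00, the middle of the WSU-DLCL2 list.

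**Figure D3:**
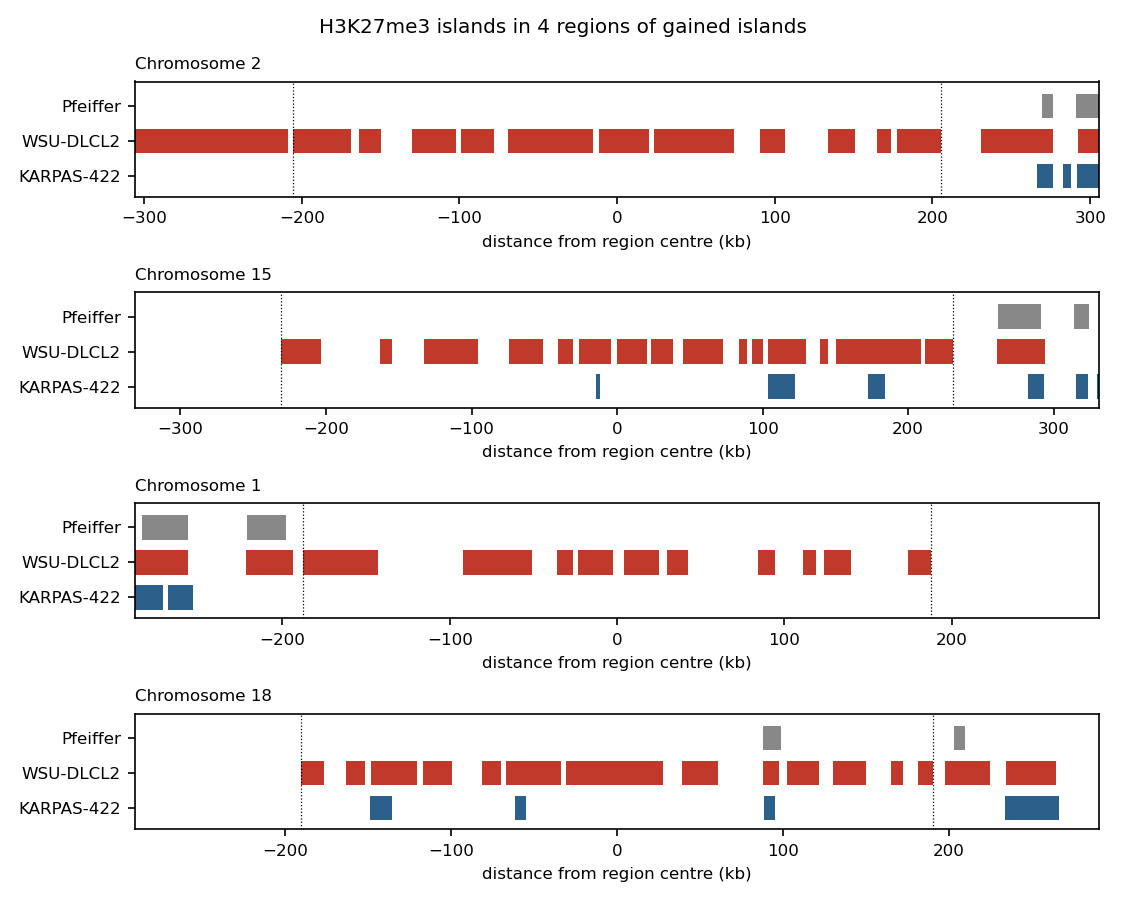
Islands of the 3 lines (rows) in 4 balanced regions of gained islands, on chromosomes 2, 15, 1 and 18, against distance from the region centre (kb). Dotted lines mark the region bounds, between which WSU-DLCL2 islands cover 52.7% to 74.3% and each other line at most 7.09%.

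The lost stretches had a median length of 10.5 kb, with quartiles of 7.5 and 15 kb. Near the length limit, 502 stretches of 5.25 kb were counted and 653 of 4.5 kb were not. They fell into 3 kinds by what WSU-DLCL2 showed in the segment covered in both other lines. In 3411 stretches (57.5%, and 61.1% of lost bases) the whole segment had no WSU-DLCL2 base. In 2011 (33.9%) the stretch was 1 end of a segment that WSU-DLCL2 covered in part, and in 508 (8.57%) it lay inside such a segment with WSU-DLCL2 coverage on both sides. The last 2 kinds are parts of segments in which WSU-DLCL2 did have an island, and 2543 lost stretches touched one. At the other extreme, 642 (10.8%) lay at least 100 kb from the nearest.

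Wholly lost segments were mostly short. WSU-DLCL2 had no base in 25.6% of jointly covered segments of 5 to 10 kb, 19.2% at 10 to 20 kb, 7.55% at 20 to 50 kb, 1.63% at 50 to 100 kb and 1.22% (6 of 493) at 100 kb or more. Complete coverage of the longest class also differed, since WSU-DLCL2 covered every base of 34.1% of segments of at least 100 kb. That share was 48.7% for Pfeiffer and 24.9% for KARPAS-422 against their own pairs.

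The islands of the other lines that held lost stretches were near the middle of their lists. Their median relative ratio was 0.977 in Pfeiffer and 0.969 in KARPAS-422, with an island counted once for each lost stretch it held. All islands in which those lines met, each counted once, had medians of 1.02 and 1.03, so the weights differ. Wholly lost stretches were held by weaker islands, with 0.940 and 0.944, and interior stretches by stronger and longer ones, with 1.07 and 1.10. The lower quartiles for interior stretches were 0.976 in Pfeiffer and 0.956 in KARPAS-422. How many interior stretches lay in islands above the list median in both lines at once was not counted.

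Of the 61 lost stretches of at least 50 kb, 10 reached 100 kb. The longest was chr8:131475751-131709000, 233.25 kb without a WSU-DLCL2 base, in islands with relative ratios of 0.907 (0.883 to 0.933) in Pfeiffer and 0.950 (0.901 to 1.00) in KARPAS-422. WSU-DLCL2 input there was 0.621 of its median and Pfeiffer input was 1.48. The second was the longest in balanced input, chr11:44747251-44951250, an interior stretch of 204 kb. It lay in islands with relative ratios of 1.21 (1.17 to 1.26) in Pfeiffer and 1.37 (1.31 to 1.43) in KARPAS-422. WSU-DLCL2 islands of 73.5 and 79.5 kb touched both its ends, with relative ratios of 1.48 and 1.31 and input of 1.196 and 1.145 of the median. Strong WSU-DLCL2 islands therefore stopped on either side of a stretch that the other lines covered without a break. The WSU-DLCL2 input of 1.07 for this place was pooled from islands around it. With no WSU-DLCL2 island in the stretch, its own input in that line was not measured.

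Next in balanced input was chr1:54702751-54810750, wholly lost over 108 kb, with relative ratios of 1.13 (1.07 to 1.19) in Pfeiffer and 1.34 (1.23 to 1.45) in KARPAS-422. The nearest WSU-DLCL2 islands lay 69 and 63 kb away and had relative ratios of 1.3 and 1.56. Wholly lost stretches of 84.75 kb at chr12:111571501-111656250 and 78 kb at chr3:44051251-44129250 were also held at above 1.1 in both other lines. Among wholly lost stretches of at least 10 kb, chr19:42414001-42442500 had the highest relative ratios when ranked by the lower of the pair. Over 28.5 kb it had 2.14 (1.93 to 2.37) in Pfeiffer, from 1780 H3K27me3 and 455 input reads, and 1.66 (1.44 to 1.91) in KARPAS-422, from 1054 and 240 reads. Relative input there was 1.00 for WSU-DLCL2, 0.990 for Pfeiffer and 0.920 for KARPAS-422. These are pooled values, and with no WSU-DLCL2 island in the stretch its own input in that line was not measured.

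Chained over up to 100 kb, the lost stretches formed 2398 regions, of which 1335 held a single stretch and 42 held at least 200 kb, 15 of these with balanced input. The largest was chr16:82343251-83802750, with 28 stretches that summed to 881.25 kb in a span of 1459.5 kb. WSU-DLCL2 islands covered 25.3% of it, against 93.8% in Pfeiffer and 92.3% in KARPAS-422, and Pfeiffer input was 1.49 of its median. The largest in balanced input was chr19:30783751-32700000, where 49 stretches summed to 684 kb and islands covered 27.3% of the span in WSU-DLCL2 against 70.1% for Pfeiffer and 77.1% for KARPAS-422. Second was chr6:168381001-169623750, with 39 stretches summing to 513 kb and coverage of 19.9%, 76.1% and 73.7% in the same order. On chr10:28996501-30516000, 41 stretches summing to 483.75 kb left WSU-DLCL2 with 9.48% coverage, against 64.6% and 46.7%. These regions were not empty in WSU-DLCL2, and its 28 islands in the chromosome 19 region had a median relative ratio of 0.958 where the Pfeiffer and KARPAS-422 islands had 1.08 and 1.16.

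Over the 15 balanced regions of at least 200 kb, WSU-DLCL2 coverage ran from 0% to 52.2% with a median of 5.05%. The highest value belonged to chr2:236266501-237182250, where Pfeiffer had 93.8% and KARPAS-422 80.7%. In chr9:16026001-16623000 it was 4.77% for WSU-DLCL2, 80.3% for Pfeiffer and 58.5% for KARPAS-422. In chr6:90639001-91025250 it was 5.05%, 78.6% and 73.8%. WSU-DLCL2 had 2 islands in each of these last regions, of at most 22.5 kb. Balanced lost regions thus ranged from near-empty spans to spans that WSU-DLCL2 covered in large part.

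**Figure D4:**
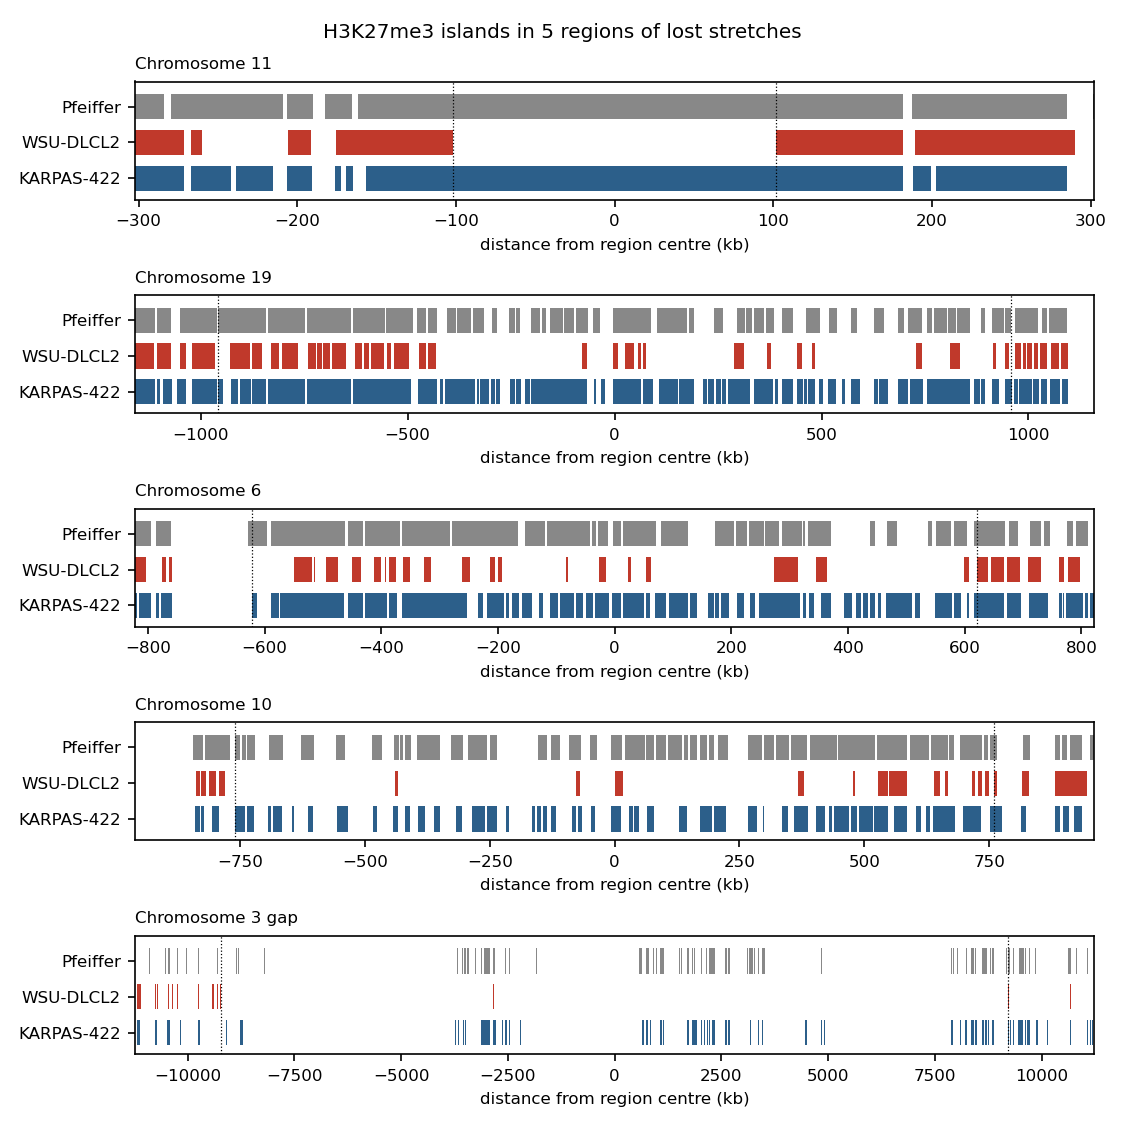
Islands of the 3 lines (rows) around the 204 kb lost stretch on chromosome 11, in the balanced lost regions on chromosomes 19, 6 and 10, and across 18.4 Mb of chromosome 3 with 1 WSU-DLCL2 island, against distance from the region centre (kb). Dotted lines mark the stretch or region bounds, between which WSU-DLCL2 coverage is 0.0935% on chromosome 3 and 9.48% to 27.3% on chromosomes 10, 6 and 19.

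WSU-DLCL2 had 325 distances of at least 1 Mb between neighbouring islands, and 126 of these contained a total of 537 lost stretches. Pfeiffer had 308 such distances, 135 of them with 725 of its own lost stretches. KARPAS-422 had 254, of which 80 contained 457. A pair of the WSU-DLCL2 distances, separated by 1 island, lay next to each other on chromosome 3. From chr3:101435251-119882250, a span of 18.4 Mb, WSU-DLCL2 had a single island where Pfeiffer had 94 and KARPAS-422 had 106. Its coverage was 0.0935%, against 9.99% in Pfeiffer and 10.1% in KARPAS-422, and 96.7% of the jointly covered bases were lost. The single island, chr3:107811001-107828250, held 299 H3K27me3 and 115 input reads, giving a relative ratio of 1.33 at an input of 0.621 of the median. Enrichment was therefore detected in this span at the site where an island was called, with few input reads.

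The input of single islands was also read without pooling over bins. Blocks were taken as at least 8 consecutive islands whose running median of input over 5 islands was at most 0.75 of the line's median, with the ends trimmed to islands at or below 0.85. This measure was chosen after the chromosome 3 values were seen. WSU-DLCL2 had 7 such blocks, spanning 43.8 Mb, and they contained 270 lost stretches. These were 4.55% of its lost stretches and 7.73% of its lost bases, but 21 of the 61 stretches of at least 50 kb and 4 of the 10 of at least 100 kb. The longest lost stretches thus had a larger share in these blocks than the whole set. Pfeiffer had 7 blocks with 12.9% of its lost stretches, and KARPAS-422 had 16 with 8.70%.

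All 270 lost stretches of the WSU-DLCL2 blocks came from 4 of them. On chr3:101435251-123336750, 21.9 Mb, the 10 WSU-DLCL2 islands had relative input from 0.485 to 0.828 with a median of 0.616. The 10 islands before the block had a median of 0.956 and the 10 after it 0.989. The nearest island before the block was already at 0.801 and the first inside lay 6.38 Mb past the block start, so the place of the change on that side was not resolved. The block held 104 lost stretches, 97 of them whole, and 93.8% of its jointly covered bases were lost. Islands covered 0.524% of the block in WSU-DLCL2, where Pfeiffer had 12.9% and KARPAS-422 13.1%. Median island input in those lines was 1.02 and 1.06, at the middle of their lists. The 93 kb lost stretch chr3:123073501-123166500 lay in this block, although its 1 Mb bin had a pooled WSU-DLCL2 input of 0.950 and counted as balanced.

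On chr8:128806501-135861000 the 15 WSU-DLCL2 islands had a median input of 0.640 (0.518 to 0.869), between medians of 1.46 before and 1.01 after. The block held 68 lost stretches, among them the 233.25 kb one, and 92.5% of its jointly covered bases were lost. Pooled input of 1.38 at chr8:129372001-129465000, a lost stretch of 93 kb, came from islands upstream of the block. Past its end, chr8:135870751-139183500 had no WSU-DLCL2 island and held another 18 lost stretches, so input there was not measured in this line.

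Chromosome 15 had a pair of such blocks. On chr15:72108001-78843000 the 53 WSU-DLCL2 islands had a median input of 0.573, between 1.02 before and 0.918 after, and 80 lost stretches took 67.1% of jointly covered bases. The 192 kb stretch chr15:73962751-74154750 was the longest of these. On chr15:41517001-43785750 the 17 islands had a median input of 0.610, between 0.904 and 0.962, and 18 lost stretches took 45.3%. Lost shares in the 4 blocks thus ran from 45.3% to 93.8%, against 14.7% over all autosomes.

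Islands that WSU-DLCL2 did have in these blocks stood high in its list. Their median relative ratio was 1.33 in the chromosome 3 block, 1.27 in the chromosome 8 block, and 1.46 and 1.52 in the shorter and the longer block of chromosome 15. Pfeiffer islands in the same 4 blocks had medians between 0.852 and 1.13, and KARPAS-422 islands between 0.878 and 1.14. The islands were also few and short in WSU-DLCL2, with median lengths of 10.125 to 13.5 kb. The blocks were picked for low input, which is the denominator of the ratio, so high ratios follow in part from that choice. Blocks of the other lines, picked by the same measure, also had high medians in their own line. These ran from 1.17 to 1.58 in Pfeiffer and from 1.35 to 2.05 in KARPAS-422. Low input, few islands and high ratios thus came together, and the part of input in the lost stretches was not tested. The remaining blocks, on chromosomes 10 and 19, held 0 lost stretches, and KARPAS-422 also had low input in them, with medians from 0.616 to 0.652. Few bases could be lost there. The other lines jointly covered 20.25 and 48.75 kb in the chromosome 10 blocks and 138 kb on chromosome 19, against 511.5 to 2558.2 kb in the 4 blocks above.

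**Figure D5:**
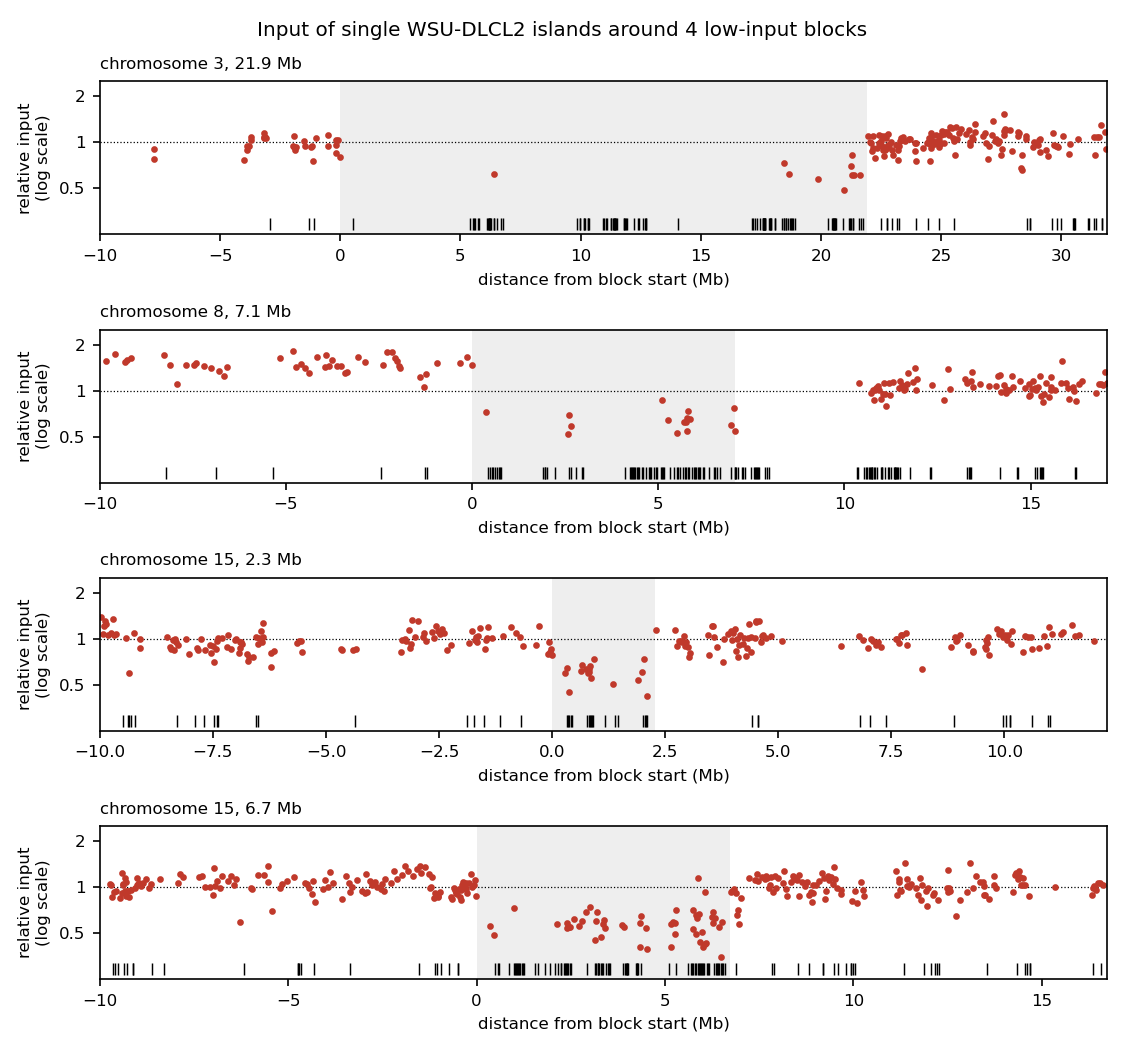
Input reads per kb of single WSU-DLCL2 islands relative to the list median (y axis, log scale) against distance from the block start (Mb), in and around the 4 low-input blocks that held lost stretches. Each point is 1 island, grey shading marks the block, and short bars along the bottom mark lost stretches. Points inside the blocks have medians of 0.573 to 0.640, while the 10 islands on either side have medians of 0.904 to 1.46, and some points next to a bound are also low.

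Outside all 7 blocks 5660 lost stretches remained, summing to 70.1 Mb. None of the 15 balanced lost regions of at least 200 kb overlapped a block, and neither did the 204 kb stretch on chromosome 11 or the 108 kb stretch on chromosome 1. These had been picked for balanced input, and a block needs at least 8 consecutive WSU-DLCL2 islands. Little overlap could thus arise, and its absence does not show the WSU-DLCL2 input inside them. On the gained side, 95 islands lay in low-input blocks of Pfeiffer and 92 in those of KARPAS-422, which together made 6.62% of gained islands. The share of all WSU-DLCL2 islands in these blocks was not taken, so 6.62% alone says nothing particular to gained islands. By 1 Mb bins, Pfeiffer or KARPAS-422 input was at most 0.75 at 6.73% of gained islands and 4.21% of all WSU-DLCL2 islands. Input of Pfeiffer or KARPAS-422 was not measured, for want of islands, at 7.12% of gained islands and 1.54% of all WSU-DLCL2 islands. The KARPAS-422 and Pfeiffer blocks lay on different chromosomes, so no gained island could lie in both.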

How the data were processed

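Island lists of the 3 H3K27me3 libraries were used, each holding per island the H3K27me3 read count, the input read count, a p-value, a fold and a false discovery rate as deposited by the authors. Per the submitters' processing notes, Bowtie, SICER and the build hg19 were used, and islands are SICER's output. The sources used here give no versions, read filters or duplicate handling. List names record the SICER window (750 bases), gap (2250 bases) and false discovery rate (0.001). Counts were used as deposited. The authors' p-value served only to cut lists to equal length, their false discovery rate, deposited as a q-value, only for a stricter list, and the deposited fold, a scaled ratio, was not used further. Lists hold reads inside islands only, so library totals are unknown and the read ratio was taken within each list.

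Overlap was computed on the 750 base grid, on which island bounds lie, with Python 3.11.15 and pandas 2.3.3, and the overlap code was tested on simulated data and against bedtools 2.31.1. Positions are 1-based on hg19. Intervals are exact Clopper-Pearson. Named gained islands were the 12 longest and, at 100 or more H3K27me3 reads and over 10 kb from other lines' islands, the 12 of highest ratio. Named lost stretches were the 15 longest and the 10 wholly lost ones of at least 10 kb with the highest lower ratio. Regions, blocks and balanced examples were chosen after their values were seen. The members and rules were chosen with earlier results of these data known. Genes and sequences at the intervals are not reported, since no annotation or genome of hg19 was used here. The alternatives tried are given in the closing section. No test was run, with 1 library per line.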

Additional observations from a re-analysis of the deposited data

Results flagged for a closer look

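Chromosome X lay outside the autosomal comparison. WSU-DLCL2 had 8 gained islands there, 7.02% of its 114 islands on this chromosome, covering 77.25 kb with a median relative ratio of 1.29. They are listed because they are a signal outside the main measurement. Lost stretches on chromosome X numbered 23 and covered 249.75 kb.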

How the results depend on the processing

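The 2824 gained islands became 1836 in balanced bins alone, 5529 against Pfeiffer alone and 5455 against KARPAS-422 alone, and their 39111.75 kb became 23806.5 kb in balanced bins. The 5930 lost stretches became 3173 with only islands at or above their list's median ratio, 3521 in balanced bins, 9813 with a minimum of 3 windows, 3000 with a minimum of 10 kb and 2393 with no WSU-DLCL2 island within 10 kb. They became 10795 when coverage in Pfeiffer alone was asked for and 11887 for KARPAS-422 alone, and their 75999.75 kb became 41154.75 kb in balanced bins. Each of these changes follows from the alternative's own construction, which takes fewer islands, fewer bins or a wider or narrower rule. With only islands at or above their list's median ratio, the lost stretches covered 70288.5 kb against 75999.75 kb, and 3211 islands were gained. A false discovery rate of at most 1e-10, lists of equal length and chromosome X kept all 4 values within 1.5 times. So did leaving out the low-input blocks, chosen after seeing the data (2637 gained islands and 5660 lost stretches). Calls below the caller's threshold are not in the lists, so a weak island and none cannot be told apart. No paired analysis was possible because every line has replicate 1 only and no result comes from a test. Gene counts at the intervals, planned only with an hg19 annotation, were not run.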
